A study of Mus musculus with 4 samples.

Results

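The mitosis genes are 40 mouse genes that act between late G2 and the end of cell division, chosen by symbol from a fixed list. That list and the lists set beside it were chosen with earlier results of these data known. Of the 40 genes, 38 were measured by a probe set that names a single gene, out of 22180 genes measured that way in the whole series. Ccnb1 and Ncapg were not analysed here. The arrays came from cells treated for 96 h with 2 µM GSK-126 (2 arrays) or with the solvent DMSO (2 arrays). GSK-126 inhibits EZH2, the enzyme that trimethylates lysine 27 of histone H3. All cells were derived from mammary tumours that ErbB2 drives in FVB females carrying the MMTV-NIC transgene, in which the MMTV promoter drives ErbB2 and Cre together, so the DMSO cells carry the oncogene as well. All cells were cultured in serum with EGF, insulin, hydrocortisone and pituitary extract. The design text can be read as different cell lines for the 2 arrays of each group, the extraction protocol speaks of tumours, and the labels do not settle whether the arrays are separate lines or separate cultures. The p-values therefore measure the spread between arrays, which may be technical.

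Mitosis is driven by Cdk1 bound to A-type and B-type cyclins. Polo and Aurora kinases then mature the spindle poles and correct chromosome attachment, kinesins move microtubules and chromosomes, and condensin compacts the chromatids. The spindle checkpoint at kinetochores holds back the anaphase-promoting complex until every chromosome is attached, and the passenger complex and the central spindle guide cytokinesis. Most of these genes are transcribed together in G2. The MuvB complex binds an element known as the cell cycle genes homology region (CHR), first with pocket proteins, which repress, and later with B-Myb and FoxM1, which activate. Messenger RNA of these genes is therefore widely read as a measure of how many cells are dividing. In a bulk sample, fewer cells in G2 and mitosis and less RNA per cell cannot be told apart.

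Mitosis genes were measured at nearly the same level with GSK-126 as with DMSO. None of the 38 passed an adjusted p of 0.05 in limma, where 96 of all 22180 genes did (0.433%). With GSK-126 58 of those 96 genes were higher and 38 lower, and with each array centred on its median 55 were higher and 62 lower. Before adjustment, 2 mitosis genes had p under 0.05 with a lower mean (Aurkb and Ncapd2), beside 5.93% of all genes, and 0 with a higher mean, beside 4.64%. The median change, GSK-126 minus DMSO on the log2 scale, was -0.06 over the 38 genes and -0.01 over all genes. It was -0.03 over the 13308 genes whose mean level reached 4.77, a level at or above which every mitosis gene lay. Of those 13308 genes, 9.05% had an unadjusted p under 0.05 in limma with a lower mean. The mitosis median was -0.09 without DMSO replicate 1 and -0.03 without DMSO replicate 2. It was -0.11 with each array centred on its median and -0.02 after quantile normalization. With centred arrays 6 mitosis genes had an unadjusted p under 0.05, and 0 passed the threshold.

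The changes were small, and their intervals rest on 2 arrays per group. Single changes ran from -0.30 for Ncapd2 to 0.21 for Hmmr, with standard errors (SE) of 0.08 to 0.14. Across the 95% intervals of the 38 genes, the lowest bound was -0.56 and the highest 0.44. A change of a single gene beyond 1.48-fold downward or 1.36-fold upward therefore lay outside each gene's own interval. Like the p-values, these single-gene intervals measure the spread between arrays, which may be technical. The GSK-126 mean was below the DMSO mean for 31 of the 38 genes, beside 52% of all genes and 58.8% of the 13308 that reached 4.77. It was below for 34 with centred arrays and for 25 after quantile normalization. The change turned its sign for 20 of the 38 genes when 1 array or another was left out. Both GSK-126 arrays lay below both DMSO arrays for 13 genes, beside 21.8% of all genes and 3779 of the 13308 that reached 4.77. Both lay above for 3 genes, Hmmr, Ckap2 and Anln, beside 18.2% of all genes and 2214 of those 13308. In the remaining 22 genes the groups overlapped.

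**Figure D1:**
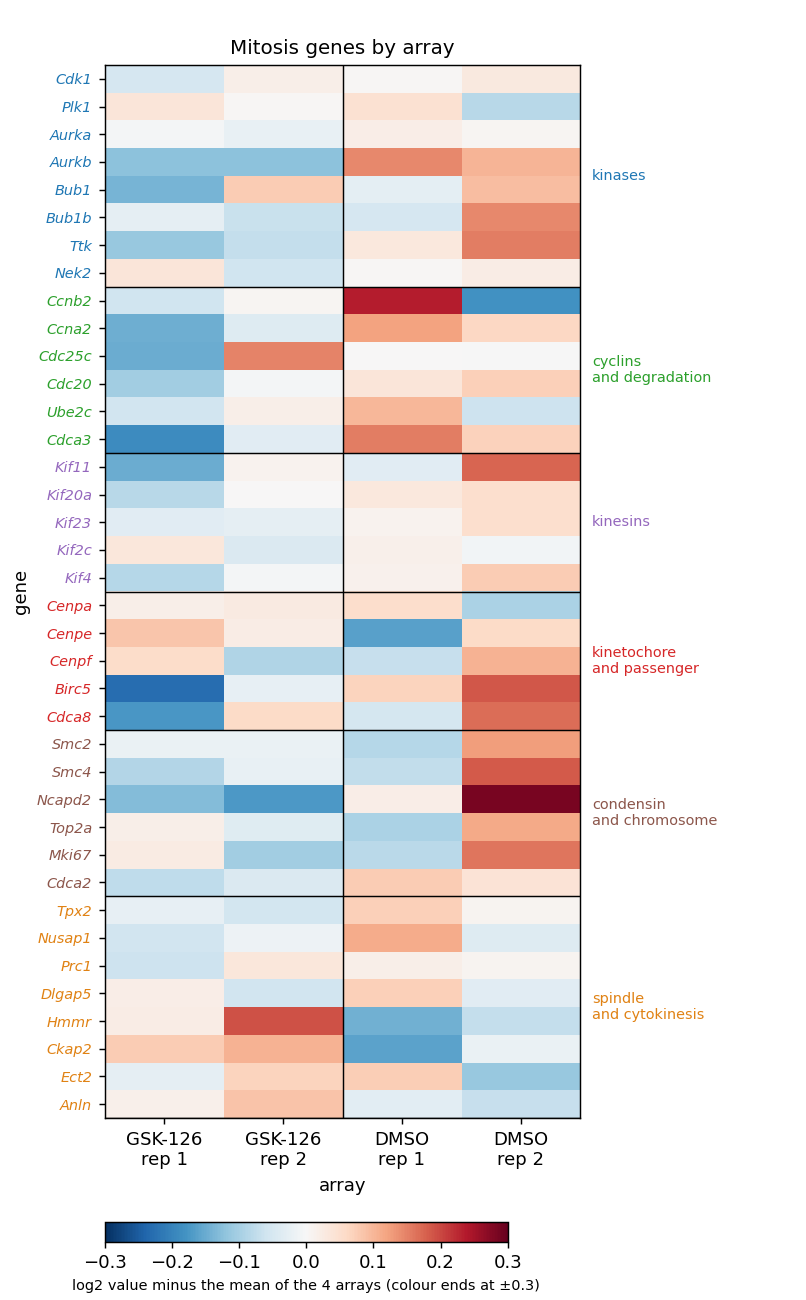
Each row is a mitosis gene and each column an array, with the 2 GSK-126 arrays left of the 2 DMSO arrays. Colour gives the log2 value minus the gene's mean over the 4 arrays, and gene names are coloured by subgroup. In Ccnb2 and in most of the condensin and chromosome genes, the 2 DMSO arrays differ from each other by more than the group means do.

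The promoters of most of these genes share sequence motifs. Members were listed by symbol, and whether known promoter control entered that choice is not recorded. RefSeq windows (GRCm38.p6) of 250 bases before and 50 after the start were found for 32 of the 40 genes. The CHR motif TTTGAA, searched on both strands, was in 26 of 32 windows (81.3%), against 18.1% of 27025 genes with a window. The NF-Y box CCAAT, on both strands, was in 28 of 32 (87.5%), against 37.9%. Both motifs were in 24 of 32 windows (75%), against 7.12%. Within 60 bases before and 50 after the start, 22 of 32 windows held a CHR match (68.8%), against 5.46%. The E2F-type motif was searched on both strands as TTTGGCG and in variants, of which TTTCGCG was the first, while TTTCCCG was the second and TTTGCCG was the third. It was in 6 of 32 mitosis windows (18.8%) and in 6.85% of all. For 37 DNA replication genes the order was the other way round, with E2F-type matches in 20 windows (54.1%) and CHR matches in 4 (10.8%). NF-Y boxes were in 23 of those 37 windows (62.2%), also above the 37.9% of all genes. Outside the list, 107 genes of mitosis and of related families had a window. CHR matches were in 39 of them (36.4%), NF-Y boxes in 57 (53.3%) and both in 26 (24.3%). A CHR match within 60 bases before and 50 after the start was in 31 of them (29.0%), and E2F-type matches in 23 (21.5%). Matches on opposite strands can overlap, as 2 E2F-type matches of Mcm6 do, and a match describes letters, not a bound site.

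Shown here are the 150 bases that end just before the start of a kinase, 2 genes of mitotic degradation, a kinesin and a spindle gene, with the replication helicase gene Mcm6 for contrast. They were picked to show the common layout, a CHR and NF-Y boxes close to the start, and with Ckap2 a departure from it. Capitals mark CHR matches (TTTGAA or its complement TTCAAA), NF-Y boxes (CCAAT or ATTGG) and E2F-type matches.
Cdk1, chr10:69352913-69353062, minus strand: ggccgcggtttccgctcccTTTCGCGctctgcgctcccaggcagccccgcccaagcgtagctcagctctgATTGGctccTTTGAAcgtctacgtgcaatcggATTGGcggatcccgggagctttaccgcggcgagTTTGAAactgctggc
Ube2c, chr2:164769779-164769928, plus strand: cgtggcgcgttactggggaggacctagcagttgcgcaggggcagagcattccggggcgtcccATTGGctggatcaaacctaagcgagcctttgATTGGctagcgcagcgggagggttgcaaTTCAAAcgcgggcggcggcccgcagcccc
Cdc20, chr4:118437344-118437493, minus strand: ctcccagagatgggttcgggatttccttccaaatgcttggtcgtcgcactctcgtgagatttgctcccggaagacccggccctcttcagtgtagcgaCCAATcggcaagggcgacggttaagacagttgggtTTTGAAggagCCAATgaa
Kif11, chr19:37376232-37376381, plus strand: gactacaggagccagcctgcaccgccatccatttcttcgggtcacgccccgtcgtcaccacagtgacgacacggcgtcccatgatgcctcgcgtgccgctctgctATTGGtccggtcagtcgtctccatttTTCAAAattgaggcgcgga
Ckap2, chr8:22185820-22185969, minus strand: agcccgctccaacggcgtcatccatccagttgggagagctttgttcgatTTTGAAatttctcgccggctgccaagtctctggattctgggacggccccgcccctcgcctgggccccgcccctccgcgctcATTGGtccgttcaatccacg
Mcm6, chr1:128359706-128359855, minus strand: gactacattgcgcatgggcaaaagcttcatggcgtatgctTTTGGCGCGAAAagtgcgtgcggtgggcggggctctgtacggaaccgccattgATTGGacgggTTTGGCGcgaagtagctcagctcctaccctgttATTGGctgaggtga
In Cdk1, Ube2c, Cdc20 and Kif11 the CHR match nearest the start began at -15, -29, -18 and -19 bases from it, each with at least 1 NF-Y box upstream. In Ckap2 the order was turned round, with the CHR match at -101 and the NF-Y box at -20. The Mcm6 stretch held E2F-type matches and NF-Y boxes and no CHR match.

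**Figure D2:**
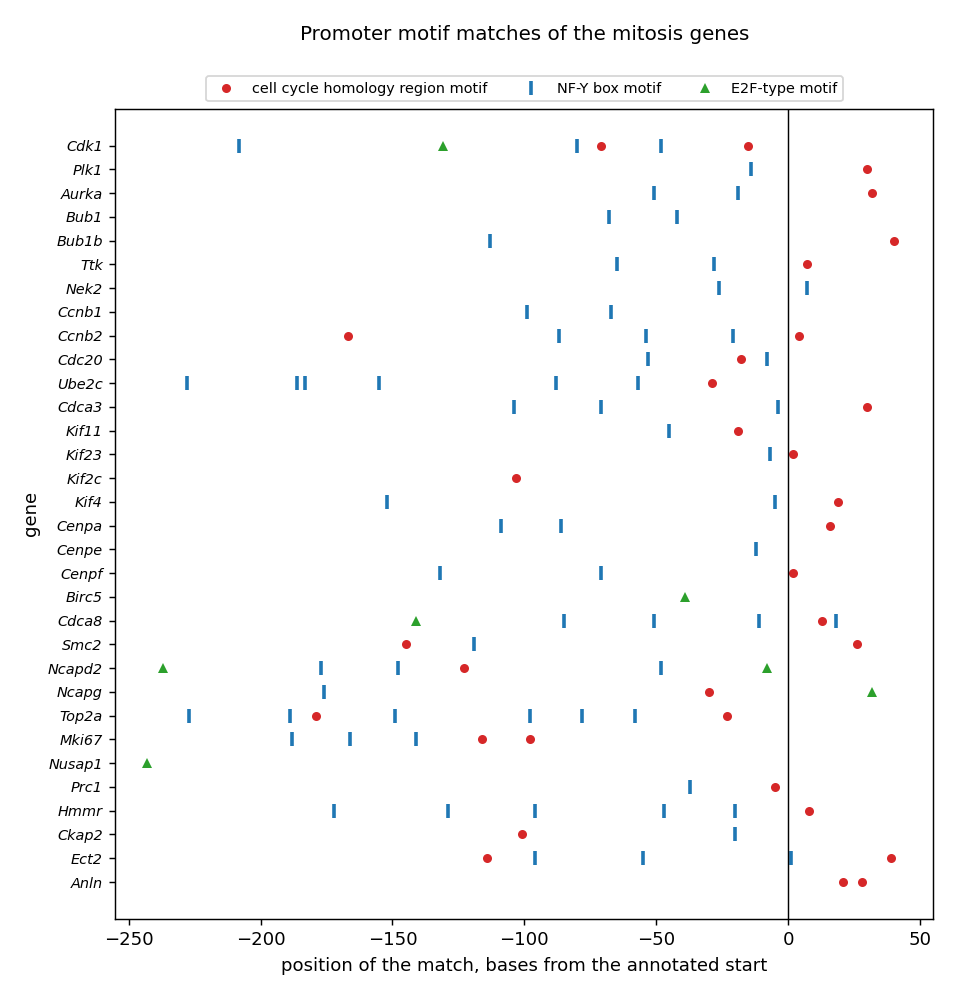
Each row is 1 of the 32 mitosis genes with a promoter window, and the horizontal axis gives the position of each motif match in bases from the annotated start. CHR matches (circles) gather around the start, with a median position of -5, and NF-Y boxes (bars) lie further upstream, with a median position of -71.

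Genes of mitotic entry and protein degradation had a median change of -0.08 over 6 genes measured. Leave-out values of this median were -0.15 without GSK-126 replicate 2, -0.17 without DMSO replicate 2, -0.06 without DMSO replicate 1 and -0.04 without GSK-126 replicate 1. Cyclin A2 (Ccna2), which partners Cdk2 in S phase and Cdk1 in G2, was at 9.68 and 9.78 in GSK-126 cells, against 9.94 and 9.88 in DMSO cells (change -0.18, SE 0.08, adjusted p = 0.500). The groups did not overlap. Cdca3, an adaptor that helps to degrade the Cdk1 inhibitor Wee1, was at 6.87 and 7.03 with GSK-126, against 7.21 and 7.13 with DMSO (change -0.22, SE 0.11, adjusted p = 0.520). The lowest value was again that of GSK-126 replicate 1. Cyclin B2 (Ccnb2) was at 10.12 and 10.19 in GSK-126 cells, inside the span of the DMSO cells at 10.42 and 10.002. Its change of -0.05 (SE 0.13) turned to 0.16 without DMSO replicate 1, and its paralog Ccnb1 was not analysed here. The remaining members were Cdc20, the checkpoint-controlled activator of the anaphase-promoting complex (-0.11), Ube2c, the ubiquitin-conjugating enzyme of that complex (-0.04), and Cdc25c, a phosphatase that activates Cdk1 (-0.001). Cdc25c differed more between the GSK-126 arrays, at 7.36 and 7.66, than between the groups.

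Among the 8 kinases the median change was -0.05. Aurkb, the catalytic subunit of the chromosomal passenger complex, had the smallest p of all mitosis genes. It was at 9.21 on both GSK-126 arrays, against 9.48 and 9.44 on the DMSO arrays (change -0.25, SE 0.08, 95% interval -0.43 to -0.06, unadjusted p = 0.0155, adjusted p = 0.348). The change ran from -0.27 to -0.23 when single arrays were left out. Its paralog Aurka, which acts at spindle poles, was at 8.45 and 8.43 with GSK-126, against 8.48 and 8.46 with DMSO (change -0.03, SE 0.08, 95% interval -0.22 to 0.17). The interval of Aurka includes 0, and the difference between the paralogs was not tested. The checkpoint kinase gene Ttk was at 8.35 and 8.39 in GSK-126 cells, against 8.49 and 8.61 in DMSO cells (change -0.18, SE 0.09, adjusted p = 0.523).

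Other kinases showed less difference. Bub1, which recruits checkpoint proteins to kinetochores, was at 8.17 and 8.38 with GSK-126, against 8.28 and 8.40 with DMSO, and its change of -0.06 turned to 0.04 without GSK-126 replicate 1. Its relative Bub1b, the BubR1 component of the checkpoint inhibitor, was at 7.85 and 7.81 with GSK-126, against 7.83 and 8.02 with DMSO. The change of -0.09 (SE 0.10) became 0.002 without DMSO replicate 2. Cdk1 itself had a change of -0.03 (95% interval -0.22 to 0.16), Plk1, the polo kinase of mitotic entry, of 0.04 (-0.16 to 0.24), and the centrosomal kinase gene Nek2 of -0.02 (-0.23 to 0.18). The kinase median was -0.07 without GSK-126 replicate 2, -0.08 without DMSO replicate 1 and -0.02 without DMSO replicate 2.

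The 5 kinesins had a median change of -0.08, all with a lower GSK-126 mean as deposited. Kif11, the motor that pushes spindle poles apart, was at 9.01 and 9.17 in GSK-126 cells, against 9.13 and 9.34 in DMSO cells (change -0.14, SE 0.10, adjusted p = 0.692). Its groups overlapped, and the change was -0.04 without DMSO replicate 2. Kif20a, a motor of the central spindle, was at 9.71 and 9.79 with GSK-126, against 9.82 and 9.84 with DMSO (change -0.08, SE 0.08, adjusted p = 0.788). Kif4, which acts on chromosome arms and the midzone (-0.09), and Kif23, a subunit of centralspindlin (-0.06), likewise did not overlap, and the microtubule depolymerase gene Kif2c (-0.01) did. The kinesin median was -0.04 without DMSO replicate 2, -0.05 without GSK-126 replicate 1 and -0.13 without GSK-126 replicate 2. After quantile normalization it was -0.04.

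**Figure D3:**
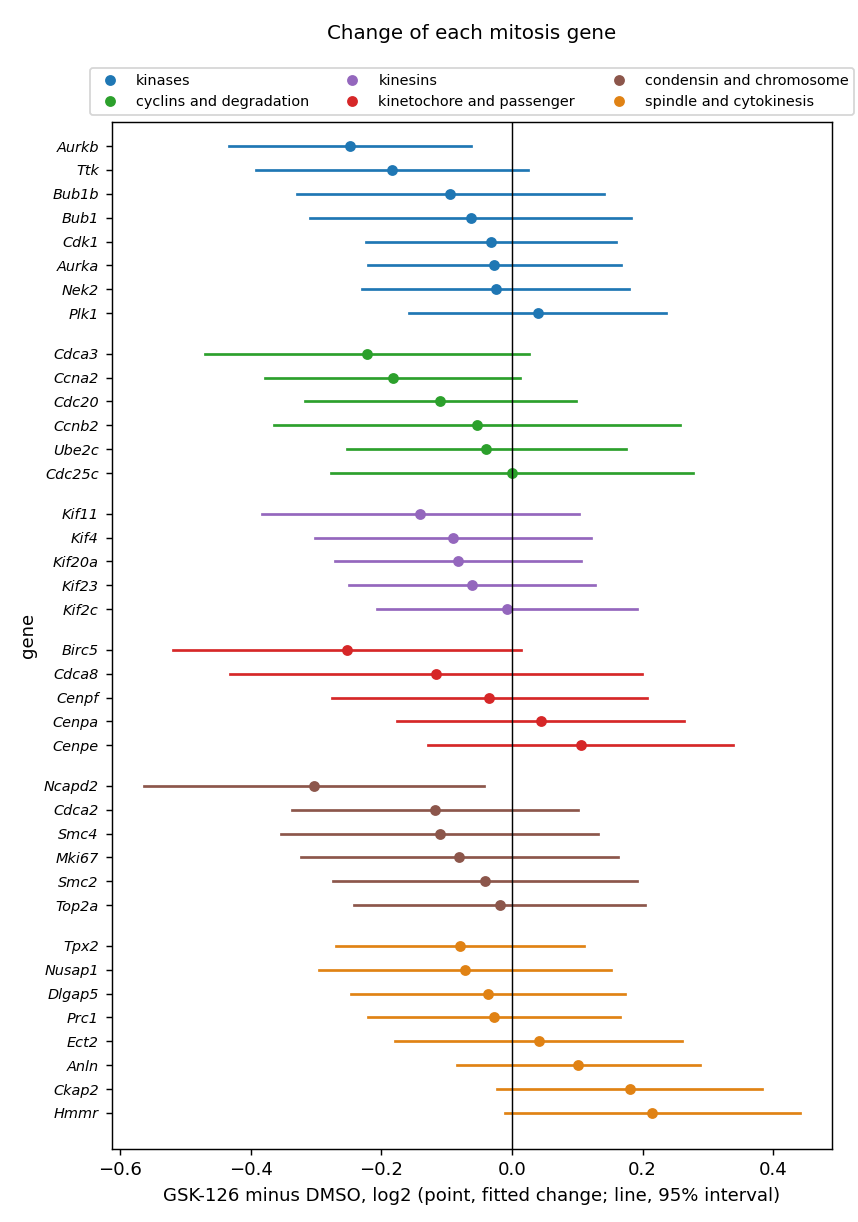
Points give the fitted change of each mitosis gene, GSK-126 minus DMSO on the log2 scale, and lines its 95% interval, coloured by subgroup. The intervals of Aurkb and Ncapd2 lie below 0 before adjustment over all genes, and those of the other 36 genes include 0.

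Kinetochore and passenger genes had a median of -0.03 over 5 genes, with members on both sides of 0. The median was 0.04 without GSK-126 replicate 2, -0.12 without DMSO replicate 1, -0.0005 without GSK-126 replicate 1, -0.006 without DMSO replicate 2 and 0.01 after quantile normalization. Birc5, which encodes survivin of the passenger complex, was at 6.77 and 6.97 in GSK-126 cells, against 7.06 and 7.18 in DMSO cells (change -0.25, SE 0.11, adjusted p = 0.498). The groups did not overlap, and without GSK-126 replicate 1 the change was -0.15. Cdca8, the borealin subunit of the same complex, had a change of -0.12 (SE 0.14) with overlapping groups, so the 3 passenger genes of the list (Aurkb, Birc5 and Cdca8) each had a lower GSK-126 mean. Cenpe, a kinesin that carries chromosomes from the kinetochore, was at 8.89 and 8.83 with GSK-126, against 8.64 and 8.86 with DMSO (change 0.11, SE 0.10, adjusted p = 0.780). Without DMSO replicate 1 that change was -0.01. The centromeric histone gene Cenpa (0.04) and the kinetochore gene Cenpf (-0.03) overlapped between groups.

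The condensin and chromosome genes had a median of -0.10 over 6 genes, each with a lower GSK-126 mean. Ncapd2, a regulatory subunit of condensin I, had the most negative change among mitosis genes. It was at 7.67 and 7.63 in GSK-126 cells, against 7.82 and 8.08 in DMSO cells (change -0.30, SE 0.11, 95% interval -0.56 to -0.04, unadjusted p = 0.0282, adjusted p = 0.410). The groups did not overlap, but the DMSO arrays differed by 0.26, and the change was -0.44 without DMSO replicate 1 and -0.17 without DMSO replicate 2.

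The core condensin ATPases showed no such separation. Smc2 was at 8.31 on both GSK-126 arrays, between the DMSO values of 8.24 and 8.45. Smc4 was at 9.51 and 9.58 with GSK-126, against 9.52 and 9.78 with DMSO. Their changes, -0.04 (SE 0.10) and -0.11 (SE 0.10), turned to 0.06 and 0.02 without DMSO replicate 2. Cdca2, which brings protein phosphatase 1 to chromatin, was at 7.24 and 7.27 with GSK-126, against 7.39 and 7.35 with DMSO (change -0.12, SE 0.09, adjusted p = 0.720). The DNA-untangling enzyme gene Top2a (-0.02) and Mki67, which coats mitotic chromosomes and is used as a proliferation marker (-0.08), overlapped between groups. Mki67 was at 10.27 and 10.14 in GSK-126 cells, against 10.16 and 10.40 in DMSO cells.

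The spread of this subgroup lay largely between the DMSO arrays. In 5 of its 6 genes DMSO replicate 2 was the higher of the pair, by a median of 0.23, whereas the GSK-126 arrays differed by a median of -0.02 (replicate 2 minus replicate 1). Over all 38 mitosis genes the corresponding medians were 0.02 for DMSO and 0.04 for GSK-126. Without DMSO replicate 2 the median change of the subgroup was 0.03, and without DMSO replicate 1 it was -0.17. The change exceeded the difference within each of the groups for 15 of the 38 mitosis genes, beside 6272 of all 22180 genes.

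Spindle and cytokinesis genes held the higher values, with a median of 0.01 over 8 genes, 4 on each side of 0. Hmmr, a spindle assembly protein, was at 8.24 and 8.41 in GSK-126 cells, against 8.07 and 8.14 in DMSO cells (change 0.21, SE 0.10, adjusted p = 0.498). Ckap2, which stabilises spindle microtubules, was at 9.44 and 9.47 with GSK-126, against 9.20 and 9.34 with DMSO (change 0.18, SE 0.09, adjusted p = 0.523). Neither overlapped, and the change of Hmmr ran from 0.13 without GSK-126 replicate 2 to 0.30 without GSK-126 replicate 1. That of Ckap2 ran from 0.11 without DMSO replicate 1 to 0.25 without DMSO replicate 2. Anln, a scaffold of the contractile ring (0.10), did not overlap either, and Ect2, the exchange factor that activates RhoA at the furrow (0.04), did. The others were the Aurora A activator Tpx2 (-0.08), the microtubule binders Nusap1 (-0.07) and Dlgap5 (-0.04) and the midzone bundler Prc1 (-0.03). The median was 0.06 without DMSO replicate 1, -0.04 without DMSO replicate 2, 0.05 without GSK-126 replicate 1 and -0.002 without GSK-126 replicate 2. With centred arrays it was -0.05.

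A further 119 genes of mitosis and of related families outside the list were measured of 126, and 0 passed the threshold in limma. They are called other mitosis genes here, though some, such as Kif3a, Kif5b and Cdc7, also act outside mitosis. Their median change was -0.12 (interquartile range -0.24 to -0.04), and 97 of 119 had a lower GSK-126 mean. Both GSK-126 arrays lay below both DMSO arrays for 55 of the 119, beside 21.8% of all genes and 3779 of the 13308 that reached 4.77. Both lay above for 7, beside 18.2% of all genes, and the groups overlapped for 57. Before adjustment, p was under 0.05 for 18 with a lower mean and for 0 with a higher one. Those 18 are 15.1% of the genes, beside 5.93% of all genes and 9.05% of the 13308 genes that reached 4.77. The median was -0.21 over the 4 condensin genes outside the list, 2 of them at an unadjusted p under 0.05. It was -0.18 over 31 other kinetochore genes, -0.16 over 15 genes of cohesion and chromatid separation, -0.13 over 10 other kinesins and -0.08 over 13 other kinases. It was -0.09 over 24 genes of the checkpoint and the anaphase-promoting complex and -0.08 over 22 other spindle and cytokinesis genes.

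Fbxo5, which encodes the Emi1 inhibitor of the anaphase-promoting complex, was at 7.77 and 7.75 in GSK-126 cells, against 8.18 and 8.09 in DMSO cells (change -0.37, SE 0.09, adjusted p = 0.212). Ncapd3, a subunit of condensin II, was at 8.48 and 8.56 with GSK-126, against 8.88 and 8.87 with DMSO (change -0.35, SE 0.08, adjusted p = 0.208). The gap between the groups was wider than the spread within either for both genes. The other condensin genes were Ncapg2 (-0.32), Ncaph (-0.11) and Ncaph2 (-0.02), so all 7 condensin subunits measured had a lower GSK-126 mean in the deposited values (median -0.11). Ncaph turned to 0.01 without DMSO replicate 1, and Ncaph2 turned to 0.12 without DMSO replicate 1, to 0.07 without GSK-126 replicate 2 and to 0.002 after quantile normalization. The condensin median was -0.24 without DMSO replicate 1 and -0.17 without DMSO replicate 2.

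The genes with the smallest p in the remaining lists all had both GSK-126 arrays below both DMSO arrays, which picking them by p favours. For kinetochores they were the Cenpa-loading factor Mis18a (-0.25), the inner kinetochore genes Cenpl (-0.45) and Cenpi (-0.25) and the outer kinetochore gene Ska3 (-0.41). Among kinesins and their kin they were Kif22 (-0.30), a motor on chromosome arms, Kif18a (-0.24), Kifc1 (-0.23) and Kif15 (-0.16). Among kinases and cofactors they were Vrk1 (-0.30), Melk (-0.23), Cdc7 (-0.31), which fires replication origins, and the Aurora A cofactor gene Bora (-0.20). For cohesion they were the cohesin acetyltransferase gene Esco2 (-0.46), the cohesin subunit gene Stag1 (-0.26), Cdca5, which encodes sororin (-0.22), and Pds5a (-0.20). In the checkpoint list Anapc11 (-0.42) and Cdc26 (-0.29), both subunits of the anaphase-promoting complex, and the checkpoint-disassembly gene Trip13 (-0.26) stood beside Fbxo5. In the spindle list they were Kifc5b (-0.43), Haus1 (-0.21), Stmn1 (-0.25) and Fam83d (-0.24). Kifc5b is a near-identical relative of Kifc1, and neither is certain as a single gene.

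The regulators of these promoters had a median of -0.16 over 22 genes measured, with 0 past the threshold in limma. Before adjustment, p was under 0.05 for 5 with a lower mean, beside 5.93% of all genes, and for 1 with a higher mean, beside 4.64%. Of the 13308 genes that reached 4.77, 9.05% were lower at that level. Mybl2, which encodes B-Myb, was at 8.23 and 8.25 in GSK-126 cells, against 8.996 and 8.61 in DMSO cells (change -0.56, SE 0.13, unadjusted p = 0.00287, adjusted p = 0.194). The DMSO arrays differed by 0.39, yet both lay above both GSK-126 arrays. The change was -0.37 without DMSO replicate 1 and -0.76 without DMSO replicate 2, and a second, dimmer probe set of Mybl2 gave -0.006. The others lower at that level were E2f8, a repressor of E2F targets (-0.33), Rbbp4 (-0.29), Nfyc (-0.27) and the pocket protein partner gene E2f4 (-0.30). Rbbp4, a MuvB subunit gene, has 2 probe sets, and the one with the higher mean was read. The other MuvB subunit genes were Lin9 (0.17), Lin54 (0.03), Lin52 (-0.002) and Lin37 (-0.19). Nfyc encodes an NF-Y subunit, and the other subunit genes, Nfya (-0.12) and Nfyb (0.02), overlapped between groups. The single gene higher at an unadjusted p under 0.05 in limma was Cdkn1a, which encodes the Cdk inhibitor p21. It was at 11.66 and 11.84 with GSK-126, against 11.57 and 11.36 with DMSO (change 0.28, SE 0.11, unadjusted p = 0.0295, adjusted p = 0.415). Foxm1, named after its values were seen, was at 8.01 and 8.15 with GSK-126, against 8.23 and 8.24 with DMSO (change -0.15, SE 0.09, adjusted p = 0.617).

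**Figure D4:**
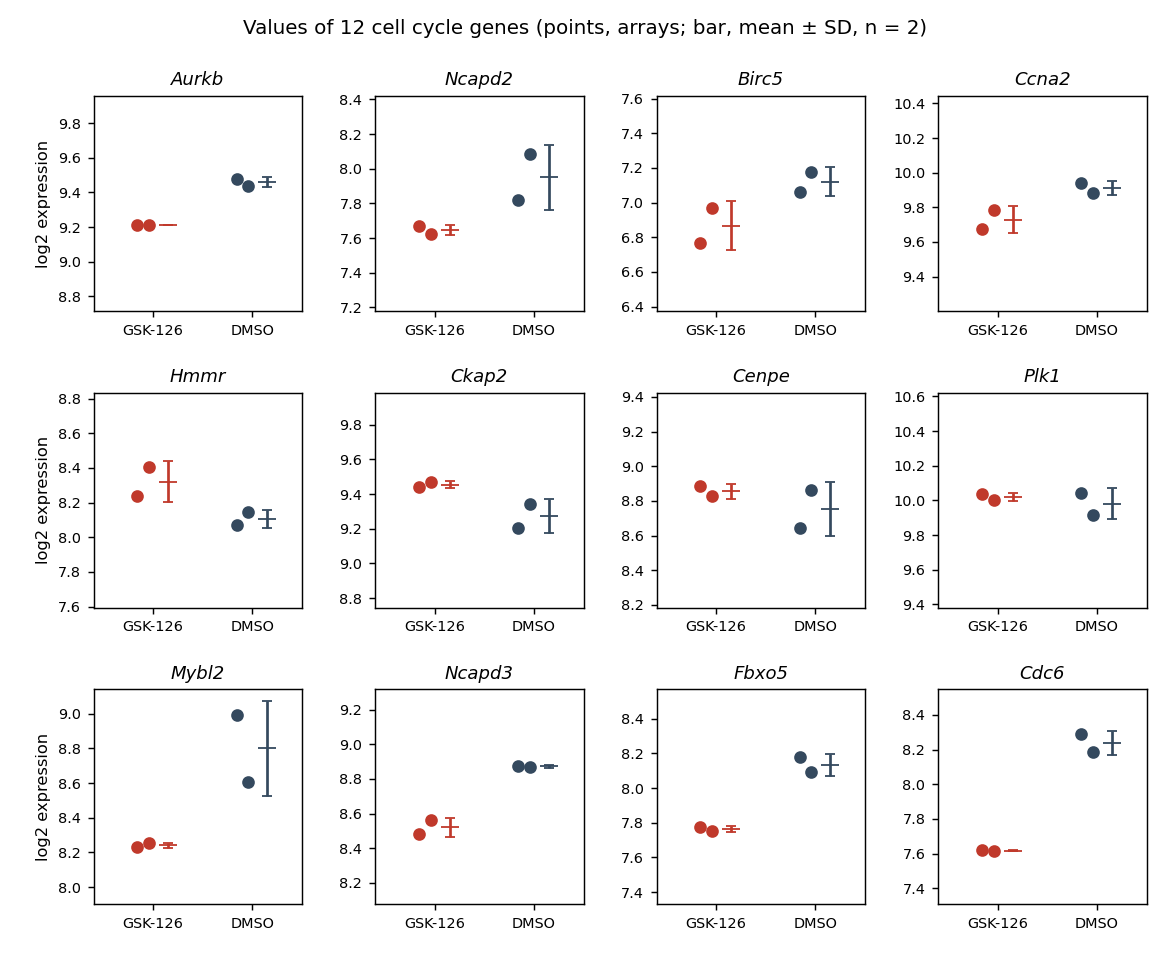
Points are arrays and bars the mean ± SD (n = 2) of log2 expression for 12 cell cycle genes, GSK-126 left of DMSO, with vertical axes of equal span. The groups are apart in Aurkb, Ncapd2, Birc5, Ccna2, Mybl2, Ncapd3, Fbxo5 and Cdc6 with GSK-126 lower, are apart in Hmmr and Ckap2 with GSK-126 higher, and overlap in Cenpe and Plk1.

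DNA replication genes, the part of the cell cycle programme that precedes mitosis, differed more between the same arrays. Their list was also chosen with earlier results of these data known. Their median change was -0.29 over 44 genes, 0.23 below that of the mitosis genes, and 43 of 44 had a lower GSK-126 mean. The distance between the medians ran from -0.29 without DMSO replicate 2 to -0.17 without DMSO replicate 1. Before adjustment, p was under 0.05 for 28 of the 44, all with a lower mean, beside 5.93% of all genes and 9.05% of the 13308 that reached 4.77. Both GSK-126 arrays lay below both DMSO arrays for 38, beside 21.8% of all genes and 3779 of those 13308. Cdc6, which loads the replicative helicase, passed the threshold as the sole member, at 7.62 and 7.61 in GSK-126 cells, against 8.29 and 8.19 in DMSO cells (change -0.62, SE 0.09, adjusted p = 0.0455). Its adjusted p was 0.0507 after quantile normalization, 0.158 with the replicate block, 0.271 without the intensity trend, 0.440 with every probe set tested by itself and 0.210 to 0.473 when an array was left out. Its change was -0.58 after quantile normalization and ran from -0.67 to -0.57 when an array was left out. The histone chaperone gene Chaf1b (-0.40) and Uhrf1, a factor of DNA methylation upkeep (-0.38), had the next smallest p. The 1 gene with a higher mean, Rpa3 (0.08), had DMSO values of 9.06 and 8.35 that enclosed both GSK-126 values.

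**Figure D5:**
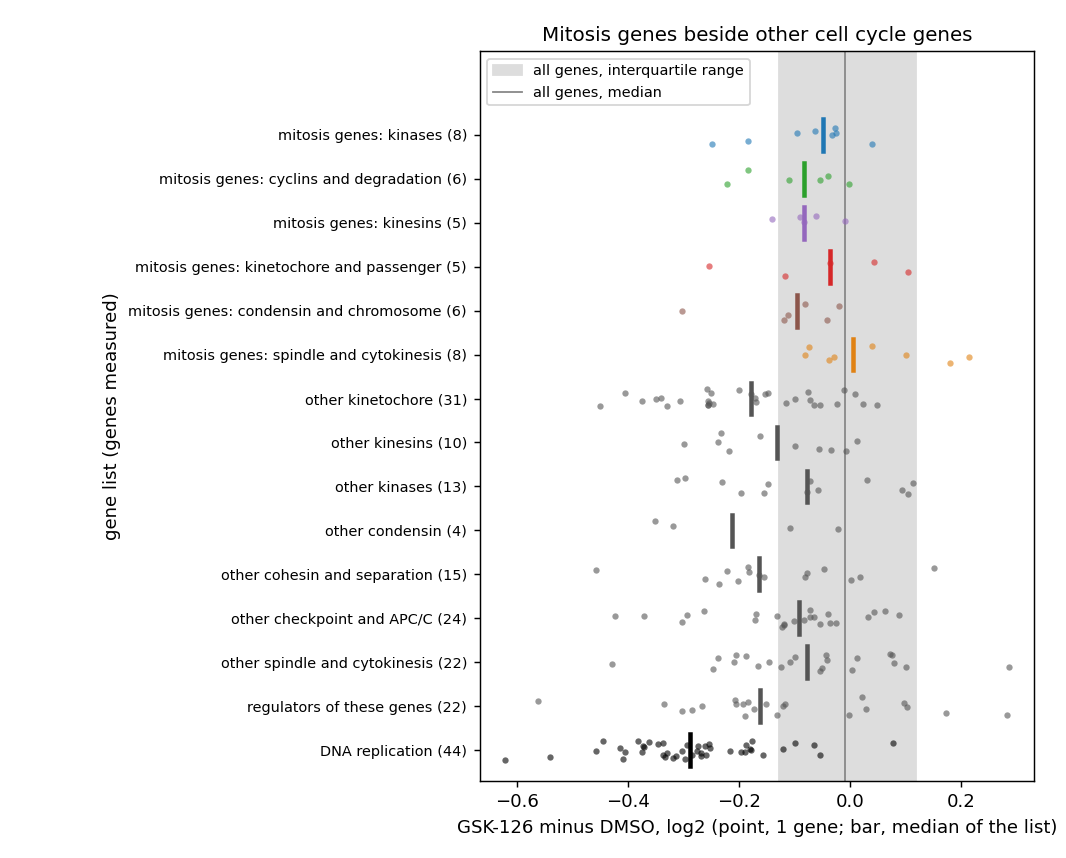
Points are genes and bars list medians of the change, GSK-126 minus DMSO on the log2 scale, for the 6 mitosis subgroups, 7 lists of other mitosis genes, their regulators and DNA replication genes. The grey band is the interquartile range of all genes. Mitosis subgroup medians lie between -0.10 and 0.01, and the replication median is -0.29.

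Changes were also set beside the promoter motifs. Measured mitosis genes with a CHR match had a median change of -0.04 (25 genes), and those without had -0.06 (5 genes). The 5 with an E2F-type match had a median of -0.12, all with a lower GSK-126 mean. The 25 without had a median of -0.03, and 18 of these had a lower GSK-126 mean. Of the 5 with a match, Cdk1 and Nusap1 changed sign when 1 array or another was left out. Among the other mitosis genes the medians were -0.16 with a CHR match (36 genes) and -0.10 without (66 genes), and they were -0.17 with an E2F-type match (23 genes) and -0.11 without (79 genes). DNA replication genes were at -0.30 with an E2F-type match (20 genes) and -0.32 without (16 genes). These medians are descriptions, with no test.

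As a check of the labelled cells, the epithelial markers Krt8, Krt18, Epcam and Cdh1 lay between 10.4 and 11.7 on all arrays. Krt19 was lower, at 4.62 to 4.89, and Erbb2 was at 8.85 on both GSK-126 arrays, against 9.03 and 8.97 on the DMSO arrays. Of 6 immune markers measured, 5 (Ptprc, Cd3e, Itgam, Adgre1 and Lyz2) stayed below 4.77 on every array. Cd68, which macrophages and some other cells express, rose to 9.16 and 9.12 with GSK-126, against 8.201 and 8.08 with DMSO (adjusted p = 0.010). The log2 summed level of the immune list was 9.30 to 9.33 with GSK-126 and 8.46 to 8.55 with DMSO. That sum follows Cd68, since the other 5 genes stayed below 4.77. Over the 6 immune genes, 4 had a lower GSK-126 mean, and the median change was -0.08. The part of this list in the values of the mitosis genes was not tested. Summed levels of luminal markers were 13.03 to 13.05 with GSK-126 and 13.07 to 13.11 with DMSO, and those of basal markers 6.89 to 6.95 with GSK-126 and 6.98 to 7.18 with DMSO. Fibroblast markers summed to 7.51 to 7.58 with GSK-126 and 7.47 to 7.58 with DMSO, endothelial markers to 6.50 to 6.75 with GSK-126 and 6.48 to 6.64 with DMSO, and adipocyte markers to 5.71 to 5.80 with GSK-126 and 5.64 to 5.68 with DMSO. Over all 41345 probe sets, with and without a gene symbol, the GSK-126 arrays correlated at 0.981 with each other and the DMSO arrays at 0.988. Arrays of different groups correlated at 0.981 to 0.987, so the arrays did not fall into their groups by this measure.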

How the data were processed

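Single-channel Affymetrix mouse arrays were hybridised with total RNA. The deposited log2 values are robust multi-array averages over core exons from Expression Console, per the labels' protocols, and Affymetrix Power Tools is named in the submitters' processing notes. No genome build is given in the sources used here. Of 41345 probe sets, 23521 carried 1 gene symbol, 1814 several and 16010 none; each of the 22180 genes was read from its probe set with the highest mean. GSK-126 minus DMSO was fitted over all genes with limma 3.58.1 in R 4.3.3 (intensity trend, two-sided, Benjamini-Hochberg), with 2 residual and 5.57 prior degrees of freedom. The fit was tried on data simulated from its own variances, with planted changes larger than that of any mitosis gene. Recovery of smaller changes was not tested. Genes are called dim below a mean of 4.77, the 40th percentile. The number of arrays limits the precision. Array correlations over all probe sets ran from 0.981 to 0.988. Scan dates were not used here.

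The members and lists were chosen with earlier results of these data known. The 2 members of each subgroup with the smallest p, the paralog pairs, up to 4 genes of each other list and 3 replication genes are named with values. E2f4, Cdkn1a, Foxm1, Rpa3 and the further MuvB and NF-Y subunit genes were added after their values were seen. Alternatives were the prior variance, dim genes, probe sets, centring, quantile normalization, a replicate block and leaving out single arrays.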

Additional observations from a re-analysis of the deposited data

How the results depend on the processing

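No mitosis gene passed the threshold under any of the 12 alternatives, and 0 of the other mitosis and regulator genes did. In limma 4 of those alternatives called 0 of all genes (without the intensity trend, 1964 genes at an unadjusted p under 0.05; all probe sets, 2921; without GSK-126 replicate 1, 2100; without GSK-126 replicate 2, 1771), and leaving out DMSO replicate 1 or 2 called 4 or 2, so those counts say little about stability. With arrays centred on their median the count of mitosis genes at an unadjusted p under 0.05 was 6, that of other mitosis and regulator genes lower at that level 44, and medians were -0.11 for mitosis genes, -0.10 for kinases, -0.14 for kinesins, -0.047 for spindle and cytokinesis genes, -0.16 for all condensin subunits, -0.18 for other mitosis genes, -0.22 for regulators and -0.34 for replication genes. After quantile normalization they were -0.022 for mitosis genes, -0.011 for kinases, -0.038 for kinesins, -0.085 for other mitosis genes and -0.12 for regulators. With that setting 3 mitosis genes had an unadjusted p under 0.05 in limma, 1 with a lower mean and 2 with a higher one. The change of Aurka was then 0.012 and that of Ncaph2 0.0025. With probe sets averaged the regulator median was -0.14. Without the intensity trend 0 mitosis genes, and with all probe sets one by one 1, had an unadjusted p under 0.05, and without the trend 12 other mitosis and regulator genes were lower at that level. The 1 replication call ended (0 calls in limma) without the trend, with all probe sets, after quantile normalization and with the replicate block, where 26 replication genes were lower at an unadjusted p under 0.05 and Cdc6 had an adjusted p of 0.158.

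Leaving out single arrays gave 0 to 4 mitosis genes at an unadjusted p under 0.05, 26 to 28 with a lower mean, 9 to 22 other mitosis and regulator genes lower at an unadjusted p under 0.05, 0 to 0 replication calls and 16 to 25 replication genes lower at that level. Medians ran from -0.086 to -0.033 for mitosis genes, -0.085 to -0.022 for kinases, -0.17 to -0.040 for entry and degradation, -0.13 to -0.042 for kinesins, -0.12 to 0.039 for kinetochore and passenger genes, -0.17 to 0.029 for condensin and chromosome genes, -0.24 to 0.019 for the 3 condensin members, -0.24 to -0.14 for all condensin subunits, -0.043 to 0.062 for spindle and cytokinesis genes, -0.14 to -0.11 for other mitosis genes, -0.17 to -0.12 for regulators and -0.32 to -0.26 for replication genes, with the replication median minus the mitosis median at -0.29 to -0.17. The sign turned for 20 of the 38 mitosis genes in at least 1 of these fits. Of the genes named by rule, those that changed sign were Cenpe (-0.0051 to 0.22), Ccnb2 (-0.26 to 0.16), Bub1 (-0.17 to 0.044), Bub1b (-0.19 to 0.0024), Smc2 (-0.15 to 0.064), Smc4 (-0.24 to 0.019), Ncaph (-0.23 to 0.012) and Ncaph2 (-0.17 to 0.12). A lone array in a group is assumed to vary like the other group.

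Same-numbered arrays did not deviate together (correlation -0.03 over all genes), so the numbers are not taken as pairs. The replicate block took all calls to 10 from 96 genes and left mitosis genes with 0 calls, 2 at an unadjusted p under 0.05 and a median of -0.06.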
